A study of Mus musculus with 12 samples.

Results

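The TNF superfamily is a set of trimeric ligands, most of them anchored in the cell membrane, and of the receptors that bind them. Its members were collected by gene symbol from tables of 12 mouse RNA sequencing libraries: every gene whose symbol is Tnfsf or Tnfrsf with a number and at most 1 letter, with Tnf, Lta, Ltb, Ltbr, Fas and Fasl, and with 1 ligand of this naming not analysed here. This gave 36 genes, 14 ligands and 22 receptors, of the 24890 features in each table. The libraries came from male C57BL/6J mice aged 18 weeks that were fed normal chow and given no other treatment. Epididymal adipose tissue (EAT, a visceral fat pad) and inguinal adipose tissue (IAT, a subcutaneous pad) were digested with collagenase I into adipocytes and stromal vascular cells (SVCs), which are a mixture of progenitors, vessel cells and leukocytes. With 2 fractions from each of 2 pads there were 4 groups, and every group had 3 libraries. No label says whether a library stands for 1 mouse or a pool, so the tests measure the spread between these libraries, which may be technical.

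As background, ligand trimers of this family cluster their receptors, whose cytoplasmic tails either carry a death domain, which can lead to caspases, or bind TRAF adaptors, which lead to the NF-kB transcription factors. Tnf itself is released from the cell surface by the protease Adam17 and is known in fat as a product of macrophages that lowers the response of adipocytes to insulin. Lymphotoxins shape lymph nodes, BAFF and APRIL keep B lineage cells alive, and a set of ligand and receptor pairs costimulates T cells.

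The genes Ltb, Tnf and Lta lie side by side on chromosome 17 within 3.06 kb and 1.16 kb of each other, yet between the SVCs of the depots Tnf was lower in IAT while Ltb and Lta were higher. The 250 bases before the start of each, and those before Fas, which differed from most members in being higher in adipocytes, are therefore shown. They come from RefSeq on build GRCm38.p6, the build of the deposited tables, read 5′ to 3′ on the strand of the gene. Capitals mark matches on either strand to an NF-kB consensus motif, the AP-1 element TGANTCA, the TATA box TATAAA and the E-box CACGTG.
Tnf, chr17:35202008-35202257, minus strand: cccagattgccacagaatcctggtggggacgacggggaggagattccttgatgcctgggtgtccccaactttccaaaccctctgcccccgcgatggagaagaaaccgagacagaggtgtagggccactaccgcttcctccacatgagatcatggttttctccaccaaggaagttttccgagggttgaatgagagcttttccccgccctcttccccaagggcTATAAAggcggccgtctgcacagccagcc
Lta, chr17:35205352-35205601, minus strand: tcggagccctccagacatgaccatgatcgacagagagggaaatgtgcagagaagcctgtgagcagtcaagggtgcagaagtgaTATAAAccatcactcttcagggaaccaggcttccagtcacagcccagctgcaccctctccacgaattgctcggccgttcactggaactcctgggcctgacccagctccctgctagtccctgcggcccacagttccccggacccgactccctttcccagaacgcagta
Ltb, chr17:35194257-35194506, plus strand: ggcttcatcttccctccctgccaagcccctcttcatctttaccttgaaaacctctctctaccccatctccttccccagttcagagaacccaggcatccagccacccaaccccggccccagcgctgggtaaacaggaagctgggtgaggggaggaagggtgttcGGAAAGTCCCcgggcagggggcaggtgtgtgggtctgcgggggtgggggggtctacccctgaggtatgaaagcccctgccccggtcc
Fas, chr19:34290409-34290658, plus strand: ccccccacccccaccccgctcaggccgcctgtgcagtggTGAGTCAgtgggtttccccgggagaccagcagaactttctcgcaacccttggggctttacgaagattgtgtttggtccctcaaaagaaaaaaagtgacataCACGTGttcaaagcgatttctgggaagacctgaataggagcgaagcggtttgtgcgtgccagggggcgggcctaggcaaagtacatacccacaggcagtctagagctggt
The matches shown overlapped in none of these 4 windows. Tnf held a TATA box that begins 29 bases before the start, while the TATAAA of Lta began 167 bases before it. The window of Ltb held the NF-kB match, 87 to 78 bases before the start, and that of Fas an AP-1 element and an E-box. Of all 32851 promoter windows in the table, 7.25% held the NF-kB motif, 6.75% the AP-1 element, 12.4% the TATA box and 6.02% the E-box. Windows were listed for 29 of the 36 members, 33 windows in all. Among these, 4 held the NF-kB motif, 6 the AP-1 element, 5 the TATA box and 5 the E-box. These are matches of letters and say nothing about binding.

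Levels are in FPKM, which counts sequenced fragments relative to transcript length and library size and so allows genes to be compared per length. Values are the mean ± SD of 3 libraries unless the 3 libraries are listed, in the order of their replicate numbers. Differences are of log2(FPKM + 1), given ± SE with the adjusted p of limma. A call is an adjusted p under 0.05 over all 13175 features that had at least 1 FPKM in at least 3 libraries. Calls of at least 2-fold have a difference of at least 1 on this scale, which for low genes takes a larger ratio of means. Of the 36 members, 31 passed the minimum of 1 FPKM in 3 libraries, and 15 of these did so through SVC libraries alone (Fasl, Lta, Ltb, Tnfrsf4, Tnfrsf9, Tnfrsf11a, Tnfrsf11b, Tnfrsf13b, Tnfrsf13c, Tnfrsf17, Tnfrsf18, Tnfrsf22, Tnfrsf26, Tnfsf14 and Tnfsf18). These 15 had to differ between the fractions in a depot whose SVCs reached the minimum. Of the 15, 3 passed through the SVCs of 1 depot alone, Tnfrsf11b and Tnfsf18 through EAT and Lta through IAT, and so had to differ between the depots too. For these 3 the difference between the fractions was fixed only in the depot named. Where a comparison was fixed in this way, the adjusted p printed is that of the same fit on all features with no minimum. The other 5 (Tnfrsf8, Tnfrsf19, Tnfsf4, Tnfsf8 and Tnfsf15) stayed under 1 FPKM in all libraries and were not tested.

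The libraries rested on an estimated 14.2 to 24.7 M gene fragments each, and the lowest of 8 housekeeping genes was at 4.05 FPKM or more in every library. Adipocyte markers were highest in the libraries labelled adipocytes. Summed adipocyte markers (6 of 6 found) stood at 29967 to 40308 FPKM in EAT adipocytes, 33789 to 37492 in IAT adipocytes, 4531 to 5332 in EAT SVCs and 6572 to 7382 in IAT SVCs. Macrophage markers (6 of 6) summed to 143 to 162, 27.9 to 38, 1147 to 1193 and 742 to 799 FPKM in the same order of groups, with none at 0. T cell markers (6 of 7) summed to 15.8 to 17.1 FPKM in EAT SVCs and 106 to 167 in IAT SVCs, and B cell markers (6 of 6) to 37.9 to 41.4 and 156 to 243. Mesothelial markers (5 of 5) summed to 354 to 418 FPKM in EAT SVCs and 1.51 to 1.9 in IAT SVCs, where Wt1 was listed at 0. In such bulk samples fewer cells of a type and less RNA per cell cannot be told apart.

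The most abundant members of the adipocyte libraries were receptors, and most ligands were low there. In EAT adipocytes 4 of 14 ligands and 10 of 22 receptors had a mean of at least 1 FPKM, and in IAT adipocytes 4 and 8. In SVCs 10 ligands reached that level in each depot, with 20 receptors in EAT and 19 in IAT. The most abundant members of both adipocyte groups were the TNF receptor Tnfrsf1a, the TWEAK receptor Tnfrsf12a, the lymphotoxin receptor Ltbr and Fas. In EAT SVCs they were Tnfrsf12a, Tnf, Tnfrsf1a and the CD137 ligand Tnfsf9, and in IAT SVCs Tnfrsf1a, Tnfrsf12a, Tnf and Tnfsf9. At the other end, the ligands Tnfsf15, Tnfsf8 and Tnfsf4 had means of at most 0.516 FPKM in any group.

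**Figure D1:**
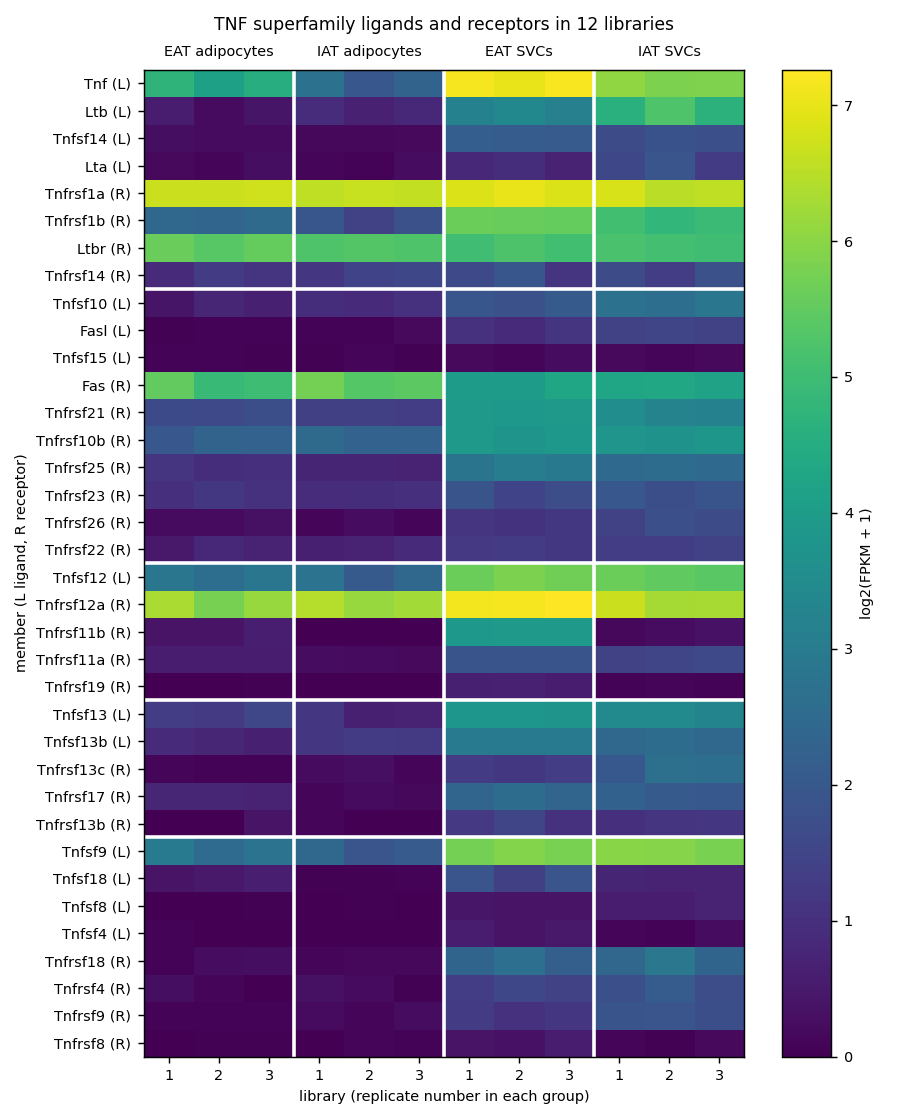
Level of the 36 members in the 12 libraries, as log2(FPKM + 1) on the colour scale, with columns for libraries grouped by tissue and fraction and rows for members, marked L (ligand) or R (receptor) and split by white lines into the groups of the text (TNF and lymphotoxin, death and TRAIL, tissue and bone, B cell survival, T cell costimulation). Tnfrsf1a and Tnfrsf12a were bright in every library, most ligands were darker in the 6 adipocyte libraries, and Tnfrsf11b was bright in the 3 EAT SVC libraries alone.

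Compared with the SVCs of the same depot, most tested members were lower in adipocytes. In EAT 29 of 31 were called lower and 2 higher, where 52.7% and 31.1% of all tested features were. By at least 2-fold 22 were lower and 1 was higher, against 27.9% and 13%. In IAT 26 were lower and 1 was higher, where 53.9% and 29.8% of all features were, and by at least 2-fold 22 and 1, against 27.1% and 13.2%. The median difference of the 31 was -1.32 in EAT and -1.47 in IAT, beside -0.31 and -0.34 for all features, but the 15 members that passed through SVCs alone enter these numbers. Among the 16 with a library of either depot at 1 FPKM or more in both fractions, 14 were lower and 2 higher in EAT, and 11 lower, 1 higher and 4 not called in IAT. Of the 16, Tnfsf10 and Tnfsf13b were under 1 FPKM in all EAT adipocyte libraries, and Tnfrsf23 and Tnfrsf25 in all IAT adipocyte libraries. In that depot the minimum acted on them too. The share of all features under the same restriction was not computed. Under median-of-ratios scaling the median of all features moves to -0.04 in EAT and -0.03 in IAT, so small differences between fractions turn on the scaling. In either direction, 31 members were called in EAT and 27 in IAT (all features 83.8% and 83.7%), of which 23 in each depot by at least 2-fold (40.9% and 40.3%). The 2 fractions did not overlap for 30 members in EAT and 28 in IAT, where 83.1% and 88.3% of all features did not.

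Between depots fewer members differed. In adipocytes 2 of 31 were called higher in IAT and 11 lower, where 10.3% and 27.3% of all tested features were. By at least 2-fold on the log2(FPKM + 1) scale 1 was lower, Tnf, and 0 were higher, against 2.57% and 1.56%. The 15 members that passed through SVCs alone were under 1 FPKM in all adipocyte libraries and could not reach that difference between adipocytes. As ratios of means, others called lower also exceeded 2-fold, among them Tnfsf18 (11.3, EAT over IAT), Tnfrsf17 (6.29) and Tnfrsf11a (3.00). The 2 called higher, Tnfsf13b (1.85, IAT over EAT) and Tnfsf10 (1.79), did not. In SVCs 8 were higher in IAT and 13 lower, against 14% and 26.2%, and by at least 2-fold on that scale 2 and 3, against 2.49% and 3.37%. As ratios of means, Ltb (3.31, IAT over EAT), Tnfrsf13c (3.30), Lta (2.60), Tnfrsf9 (2.13) and Tnfsf10 (2.01) of those called higher exceeded 2-fold. Of those called lower, Tnfrsf11b (71.7, EAT over IAT), Tnfsf18 (3.63) and Tnf (2.34) did. The median member stood at -0.09 in adipocytes and -0.07 in SVCs, beside -0.10 and -0.06 for all features. The depot difference of Tnfrsf11b, Tnfsf18 and Lta in SVCs was fixed by the minimum. Of the other 28 members, 2 were higher and 9 lower in IAT adipocytes, and 7 were higher and 11 lower in IAT SVCs, of which 2 and 1 by at least 2-fold. In either direction 13 of the 31 members were called in adipocytes and 21 in SVCs (all features 37.6% and 40.2%), 1 and 5 of them by at least 2-fold (4.12% and 5.86%). The depots did not overlap for 19 members in adipocytes and 22 in SVCs, against 48.3% and 55.1% of all features.

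Tnf had the largest depot difference of the members in adipocytes on the log2(FPKM + 1) scale; as a ratio of means, the low Tnfsf18 (11.3) and Tnfrsf17 (6.29) exceeded it, and Tnfrsf11b was listed at 0 in IAT. Its libraries stood at 25.5, 16.5 and 22.2 FPKM in EAT adipocytes and at 5.53, 2.94 and 4.01 in IAT adipocytes. In SVCs they stood at 141, 129 and 145 FPKM in EAT and 65.4, 55.6 and 56.6 in IAT. All 4 groups were apart from each other, with EAT above IAT in each fraction and SVCs above adipocytes in each depot. Tnf was 5.15 times as high in EAT as in IAT adipocytes (log2 difference -2.13 ± 0.17, limma adjusted p = 1.24e-06 for IAT minus EAT) and 2.34 times as high in EAT as in IAT SVCs (log2 difference -1.21 ± 0.17, limma adjusted p = 0.000113). The depot difference was larger in adipocytes than in SVCs (difference of differences -0.92 ± 0.25, limma adjusted p = 0.0127). In adipocytes Tnf stood at 15.5% of its SVC level in EAT and 7.02% in IAT, while the median macrophage marker stood at 12.7% and 3.72%. Between the adipocyte groups the median macrophage marker was 0.189 times as high in IAT as in EAT, and Tnf 0.194 times. The part of macrophage RNA in the Tnf of the adipocyte libraries was not tested.

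Both receptors of Tnf were measured in all groups. Tnfrsf1a, the receptor with a death domain that most cells carry, stood at 101, 102 and 105 FPKM in EAT adipocytes and 94.1, 100.2 and 96 in IAT adipocytes. It stood at 116, 129.8 and 116 FPKM in EAT SVCs and 113, 91 and 94.7 in IAT SVCs. Its libraries were alike across groups and overlapped between the fractions in IAT. It was called lower in IAT than in EAT SVCs (log2 difference -0.28 ± 0.09, limma adjusted p = 0.0201) and lower in EAT adipocytes than in EAT SVCs (log2 difference -0.23 ± 0.09, limma adjusted p = 0.0257). Under median-of-ratios scaling the first was not called (limma adjusted p = 0.108) and the second turned to 0.11 (limma adjusted p = 0.27), so neither call was kept under that scaling. Tnfrsf1b, the second receptor, which has no death domain and is known from leukocytes and endothelium, followed the fractions. Its libraries were at 4.52, 4.12 and 4.71 FPKM in EAT adipocytes and 2.88, 1.66 and 2.52 in IAT adipocytes. In SVCs they were at 48.8, 47 and 46 FPKM in EAT and 32.4, 27 and 29.6 in IAT, with no overlap between any 2 of the groups. It was lower in adipocytes in EAT (log2 difference -3.15 ± 0.12, limma adjusted p = 5.22e-11) and in IAT (log2 difference -3.21 ± 0.12, limma adjusted p = 4.12e-11), and lower in IAT than in EAT in adipocytes (log2 difference -0.72 ± 0.12, limma adjusted p = 0.000568) and in SVCs (log2 difference -0.66 ± 0.12, limma adjusted p = 0.000771). The depot differences of Tnfrsf1b in the 2 fractions did not pass the test of their difference (-0.06 ± 0.17, limma adjusted p = 0.825).

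**Figure D2:**
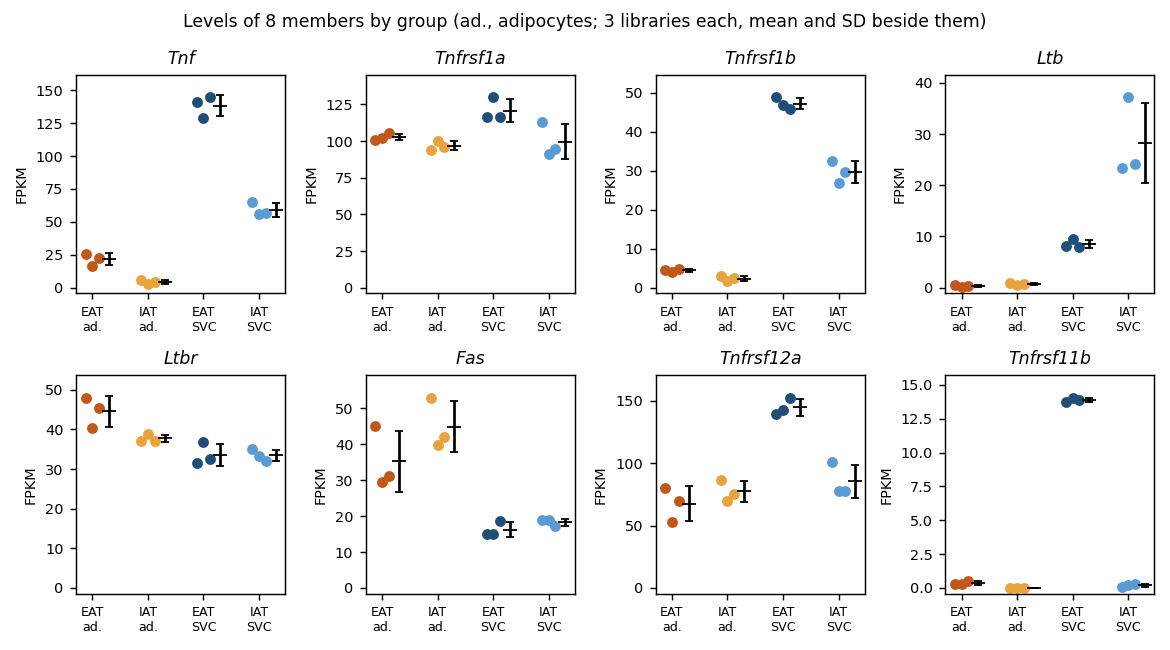
Level in FPKM (y axis, linear) of 8 members in EAT and IAT adipocytes (ad.) and SVCs; points are libraries and the black mark with bars is the mean ± SD of 3 libraries. Tnf and Tnfrsf1b were highest in EAT SVCs and Ltb in IAT SVCs, Fas was higher in adipocytes than in SVCs, and Tnfrsf11b was near 0 in all groups but EAT SVCs.

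Ltb went the other way between the SVCs of the depots, and so did the low Lta. Ltb, the membrane-bound subunit of lymphotoxin, stood at 8.2, 9.46 and 7.91 FPKM in EAT SVCs and 23.4, 37.2 and 24.2 in IAT SVCs, so that all IAT libraries were above all EAT ones, and 1 IAT library stood above the other two. The mean was 3.31 times as high in IAT (log2 difference 1.59 ± 0.16, limma adjusted p = 3.97e-06). Adipocyte libraries held 0.506, 0.167 and 0.324 FPKM in EAT and 0.877, 0.596 and 0.735 in IAT, which did not pass the test (log2 difference 0.39 ± 0.16, limma adjusted p = 0.0697). Lta, the soluble subunit that can also bind the TNF receptors, stood at 0.803, 0.919 and 0.637 FPKM in EAT SVCs and 1.96, 2.74 and 1.44 in IAT SVCs (log2 difference 0.75 ± 0.12, limma adjusted p = 0.00315 with no minimum), and its adipocyte means rested on 14 estimated fragments in EAT and 10 in IAT over 3 libraries. For both genes the depot difference was larger in SVCs (Ltb -1.20 ± 0.22, limma adjusted p = 0.00116, and Lta -0.81 ± 0.18, limma adjusted p = 0.017 with no minimum, adipocytes minus SVCs). With a pseudocount of 0.1 in place of 1 that test was not passed by Ltb (limma adjusted p = 0.206). Beside this, T cell markers were 7.54 times and B cell markers 5.54 times as high in IAT as in EAT SVCs (medians over the markers), and the part of lymphocyte numbers in these differences was not tested. Ltbr, the receptor of membrane lymphotoxin, stood in contrast at 48, 40.4 and 45.4 FPKM in EAT adipocytes and 37.2, 38.8 and 37.1 in IAT adipocytes. SVC libraries held 31.5, 36.9 and 32.4 FPKM of Ltbr in EAT and 34.9, 33.4 and 32 in IAT. It was higher in adipocytes than in SVCs in EAT (log2 difference 0.40 ± 0.08, limma adjusted p = 0.000515) and not called in IAT (log2 difference 0.17 ± 0.08, limma adjusted p = 0.0688); its lower level in IAT adipocytes (log2 difference -0.23 ± 0.08, limma adjusted p = 0.0395) was called in 8 of 19 alternative settings, with limma adjusted p from 0.012 to 0.489.

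Tnfsf14 (LIGHT), another ligand of Ltbr, stood in SVCs at 3.49, 3.34 and 3.28 FPKM in EAT and 2.21, 2.58 and 2.39 in IAT. Adipocytes held 0.215, 0.158 and 0.15 FPKM in EAT and 0.119, 0.114 and 0.146 in IAT, with no overlap between fractions in either depot (EAT -1.90 ± 0.06, limma adjusted p = 9.72e-10; IAT -1.59 ± 0.06, limma adjusted p = 2.76e-09, both with no minimum). It was lower in IAT than in EAT SVCs (log2 difference -0.36 ± 0.06, limma adjusted p = 0.000301), opposite to Ltb. Its other receptor Tnfrsf14 (HVEM) stayed between 0.836 and 2.84 FPKM in all libraries. EAT adipocytes lay below all IAT SVC libraries, every other pair of groups overlapped, and the 1 call, lower in EAT adipocytes than in SVCs (log2 difference -0.47 ± 0.19, limma adjusted p = 0.0356), was kept in 11 of 19 alternatives.

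Fas, the death receptor, was the only tested member called higher in adipocytes by at least 2-fold in either depot. EAT adipocytes held 45, 29.6 and 31.3 FPKM and IAT adipocytes 52.9, 39.7 and 42. SVC libraries held 15.1, 14.9 and 18.7 FPKM in EAT and 18.8, 19 and 17.2 in IAT. The fractions did not overlap in either depot (log2 difference 1.06 ± 0.15, limma adjusted p = 2.53e-05 in EAT; 1.24 ± 0.15, limma adjusted p = 5.76e-06 in IAT), and both calls were kept in all 19 alternatives. Between depots the groups overlapped, and neither the adipocyte difference (log2 difference 0.35 ± 0.15, limma adjusted p = 0.0884) nor that in SVCs (log2 difference 0.17 ± 0.15, limma adjusted p = 0.411) was called. Its ligand Fasl, known from cytotoxic lymphocytes, stood at 1.04, 0.822 and 1.19 FPKM in EAT SVCs and 1.72, 1.84 and 1.71 in IAT SVCs (log2 difference 0.45 ± 0.07, limma adjusted p = 0.000177). In adipocytes Fasl had means of 0.0438 and 0.0827 FPKM, from an estimated 3.4 and 8.7 fragments over 3 libraries.

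TRAIL and its receptors were mostly higher in SVCs. Tnfsf10, which encodes TRAIL, stood at 2.82, 2.46 and 3.13 FPKM in EAT SVCs and 5.53, 5.19 and 6.21 in IAT SVCs. In adipocytes it stood at 0.319, 0.727 and 0.55 FPKM in EAT, against 0.944, 0.874 and 1.04 in the IAT libraries, and IAT was above EAT in both fractions (SVCs 0.81 ± 0.10, limma adjusted p = 4.36e-05; adipocytes 0.36 ± 0.10, limma adjusted p = 0.0163, which was not kept in 2 of 19 alternatives, with limma adjusted p up to 0.0598 without IAT adipocyte replicate 3). Tnfrsf10b, the death-inducing TRAIL receptor of the mouse, was at 3.58 ± 0.585 and 4.14 ± 0.486 FPKM in EAT and IAT adipocytes and 13.5 ± 0.894 and 12.7 ± 0.57 in SVCs. Its depot differences were not called, and those between fractions were (-1.67 ± 0.10 in EAT and -1.42 ± 0.10 in IAT). Tnfrsf22 and Tnfrsf23, TRAIL receptors of the mouse without a death domain, and their neighbour Tnfrsf26 are related copies spaced by 8.88 and 16.2 kb on chromosome 7, among which the counting could split reads. They stood at 1.32 ± 0.0763, 2.26 ± 0.477 and 1.17 ± 0.0834 FPKM in EAT SVCs and were lower in adipocytes in both depots. Only Tnfrsf26 of the 3 was called between the SVC groups, higher in IAT (log2 difference 0.51 ± 0.09, limma adjusted p = 0.000475).

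Of the other receptors with a death domain, Tnfrsf21 (DR6) stood at 14.2, 13.7 and 13.9 FPKM in EAT SVCs and 10.8, 8.56 and 8.14 in IAT SVCs. Adipocytes held 2.11, 2.03 and 2.37 FPKM in EAT and 1.6, 1.57 and 1.51 in IAT, and no groups overlapped. It was lower in IAT than in EAT SVCs (log2 difference -0.56 ± 0.09, limma adjusted p = 0.000303) and lower in adipocytes (EAT -2.24 ± 0.09, limma adjusted p = 9.45e-11). Tnfrsf25 (DR3), a receptor of T cells, had the same order of groups, with 5.92, 7.41 and 6.63 FPKM in EAT SVCs and 4.63, 4.98 and 4.57 in IAT SVCs. In adipocytes it stood at 1.19, 0.92 and 1.02 FPKM in EAT and 0.669, 0.672 and 0.639 in IAT. It was lower in IAT than in EAT SVCs (log2 difference -0.42 ± 0.08, limma adjusted p = 0.00122) and lower in adipocytes than in SVCs in EAT (log2 difference -1.90 ± 0.08, limma adjusted p = 1.38e-10). T cell markers were higher in IAT SVCs, and their part in the level of Tnfrsf25 was not tested. Its ligand Tnfsf15 had means of 0.133 and 0.127 FPKM in SVCs.

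The largest depot difference among the tested members was in Tnfrsf11b (osteoprotegerin), a secreted decoy receptor best known from bone. EAT SVC libraries stood at 13.8, 14.1 and 13.9 FPKM and IAT SVC libraries at 0.105, 0.193 and 0.284. EAT adipocytes held 0.300, 0.303 and 0.513 FPKM, and the gene was listed at 0 in all 3 IAT adipocyte libraries. The SVC mean was 71.7 times as high in EAT as in IAT, with an estimated 3655 fragments behind the EAT values and 42.7 behind those of IAT (log2 difference -3.64 ± 0.07, limma adjusted p = 2.59e-09 with no minimum). It was lower in EAT adipocytes than in EAT SVCs (log2 difference -3.44 ± 0.07, limma adjusted p = 5.01e-10 with no minimum), at 2.68% of the SVC level. On the log2(FPKM + 1) scale the depot difference was larger in SVCs than in adipocytes (3.19 ± 0.10 for adipocytes minus SVCs, limma adjusted p = 1.05e-07 with no minimum). The adipocyte means were 0.372 FPKM in EAT and 0 in IAT, so this scale kept the adipocyte difference small whatever its ratio, which could not be computed. The test therefore does not compare the fold differences of the fractions. Mesothelial markers, which in EAT SVCs summed to the values given above, had a median IAT to EAT ratio of 0.0011 in SVCs, below that of Tnfrsf11b (0.0139), and their part in the difference was not tested. Fibroblastic progenitor markers had a median ratio of 0.972 but were split. Of 7 tested, 3 were called higher in IAT SVCs, all by at least 2-fold, and 3 lower, where 14% and 26.2% of all features were. The part of progenitors in the difference was not tested either. Tnfrsf11a (RANK), the receptor of osteoclast formation, differed less, with 2.67, 2.71 and 2.69 FPKM in EAT SVCs and 1.67, 1.85 and 2.05 in IAT SVCs (log2 difference -0.37 ± 0.06, limma adjusted p = 0.000268) and 0.481 ± 0.00544 and 0.16 ± 0.0272 FPKM in adipocytes. Tnfrsf19 (TROY) was not tested. It stood at 0.564, 0.599 and 0.508 FPKM in EAT SVCs and 0.0545, 0.0769 and 0.0506 in IAT SVCs, without overlap.

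Tnfrsf12a (Fn14), the receptor of TWEAK that is known to rise on injured tissue, was among the 2 most abundant members in all 4 groups. EAT adipocytes held 80.3, 53.1 and 69.4 FPKM and IAT adipocytes 86.8, 70.0 and 75.3. SVC libraries held 139, 143 and 152 FPKM in EAT and 101, 77.5 and 78 in IAT. EAT SVCs stood above all other groups, and the remaining 3 overlapped. Tnfrsf12a was lower in IAT than in EAT SVCs (log2 difference -0.77 ± 0.14, limma adjusted p = 0.000992) and not called between the adipocyte groups (log2 difference 0.21 ± 0.14, limma adjusted p = 0.286), and the 2 depot differences differed (0.97 ± 0.20, limma adjusted p = 0.00302). Its ligand Tnfsf12 (TWEAK) was at 48.9, 55.7 and 50.6 FPKM in EAT SVCs and 48.9, 43.6 and 40.9 in IAT SVCs, against 5.87 ± 0.604 and 4.5 ± 1.34 FPKM in adipocytes (EAT -2.94 ± 0.15, limma adjusted p = 6.87e-10; IAT -3.07 ± 0.15, limma adjusted p = 4.37e-10), with no call between depots. In IAT the ligand was lower in adipocytes and the receptor was not called between fractions (log2 difference -0.13 ± 0.14, limma adjusted p = 0.397).

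The B cell survival ligands also lay in SVCs. Tnfsf13b (BAFF) stood at 6.78, 7.06 and 7.1 FPKM in EAT SVCs and 4.36, 4.88 and 4.38 in IAT SVCs, lower in IAT (log2 difference -0.53 ± 0.08, limma adjusted p = 0.000147). In adipocytes the order turned, with 0.87, 0.728 and 0.557 FPKM in EAT and 1.22, 1.39 and 1.37 in IAT, higher in IAT (log2 difference 0.44 ± 0.08, limma adjusted p = 0.000848). The depot differences of BAFF thus had opposite signs, with no overlap between the groups in either fraction, and differed from each other (0.97 ± 0.11, limma adjusted p = 2.5e-05) in all 18 alternatives. IAT adipocytes held 29.3% of the SVC level of BAFF, and EAT adipocytes 10.3%. Macrophage markers were lower in IAT adipocytes, 6 of 6 by the same test (all features 27.3%), and their part in the level of BAFF was not tested. Tnfsf13 (APRIL) was at 13, 13.1 and 12.6 FPKM in EAT SVCs and 9.96, 10.1 and 8.68 in IAT SVCs and at 1.58 ± 0.301 and 0.79 ± 0.372 FPKM in adipocytes, lower in IAT in adipocytes (log2 difference -0.54 ± 0.13, limma adjusted p = 0.00571) and in SVCs (log2 difference -0.39 ± 0.13, limma adjusted p = 0.0274), the latter in 12 of 19 alternatives. Tnfsf12 and Tnfsf13 are 0.685 kb apart on chromosome 11, and the tables hold a read-through model across both, Tnfsfm13, at 8.17 to 11.3 FPKM in SVC libraries. The 3 models overlap, so how their reads were split is uncertain.

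Receptors of BAFF and APRIL differed in depot. Tnfrsf13c, the BAFF receptor of B cells, stood at 1.38, 1.24 and 1.5 FPKM in EAT SVCs and 2.99, 5.44 and 5.17 in IAT SVCs, 3.3 times as high in IAT (log2 difference 1.19 ± 0.14, limma adjusted p = 2.15e-05). Adipocyte libraries held 0.0765, 0.0441 and 0.049 FPKM in EAT and 0.163, 0.223 and 0.102 in IAT, and the depot differences differed (-1.05 ± 0.20, limma adjusted p = 0.00144; 0.062 with a pseudocount of 0.1). Tnfrsf17 (BCMA), a receptor of plasma cells, was instead lower in IAT, with 4.14, 4.95 and 4.18 FPKM in EAT SVCs and 3.77, 3.15 and 3.01 in IAT SVCs (log2 difference -0.33 ± 0.08, limma adjusted p = 0.0066; 0.0714 with a pseudocount of 0.1). It was also lower in IAT adipocytes, at 0.0634, 0.152 and 0.112 FPKM against 0.734, 0.725 and 0.603 in EAT (log2 difference -0.60 ± 0.08, limma adjusted p = 0.000121). Between the SVC groups, B cell markers were higher in IAT, as given above, and plasma cell markers had a median ratio of 0.768. Tnfrsf13b (TACI) stood at 1.42 ± 0.426 and 1.1 ± 0.12 FPKM in EAT and IAT SVCs, which overlapped and were not called (log2 difference -0.19 ± 0.12, limma adjusted p = 0.24).

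Among the T cell costimulators, the CD137 ligand Tnfsf9 was by far the most abundant. It stood at 52.4, 59.1 and 55 FPKM in EAT SVCs and 61.7, 60.0 and 54.3 in IAT SVCs, which overlapped. Adipocytes held 7.15, 4.87 and 5.76 FPKM in EAT and 4.51, 2.75 and 3.27 in IAT, lower in IAT (log2 difference -0.63 ± 0.14, limma adjusted p = 0.00407), and the 2 depot differences differed (-0.70 ± 0.20, limma adjusted p = 0.0166; 0.0503 with no filter on low values). Its receptor Tnfrsf9, which activated T cells carry, was at 1.39, 1.05 and 1.22 FPKM in EAT SVCs and 2.68, 2.78 and 2.36 in IAT SVCs, 2.13 times as high in IAT (log2 difference 0.70 ± 0.07, limma adjusted p = 4.32e-06). Adipocytes held 0.0545, 0.0419 and 0.0465 FPKM of it in EAT and 0.154, 0.0828 and 0.175 in IAT, below all SVC libraries (IAT -1.66 ± 0.07, limma adjusted p = 2e-08 with no minimum). Tnfsf18, the GITR ligand, was lower in IAT, from 2.79, 1.6 and 2.73 FPKM in EAT SVCs to 0.698, 0.607 and 0.657 in IAT SVCs (log2 difference -1.01 ± 0.12, limma adjusted p = 0.000385 with no minimum), and from 0.315, 0.404 and 0.539 to 0.0213, 0.034 and 0.0562 FPKM between the adipocyte groups (log2 difference -0.45 ± 0.12, limma adjusted p = 0.0427 with no minimum). Its receptor Tnfrsf18 (GITR), high on regulatory T cells, stood at 4.3 ± 0.851 and 4.92 ± 1.3 FPKM in EAT and IAT SVCs, which overlapped. Tnfrsf4 (OX40) was at 1.72 ± 0.234 FPKM in EAT SVCs and 2.68 ± 0.579 in IAT SVCs (log2 difference 0.43 ± 0.11, limma adjusted p = 0.00966; 0.253 with a pseudocount of 0.1).

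The remaining costimulators were low and not tested. The OX40 ligand Tnfsf4 stood at 0.469, 0.317 and 0.417 FPKM in EAT SVCs and 0.0727, 0.0592 and 0.182 in IAT SVCs, and the receptor Tnfrsf8 (CD30) at 0.308, 0.27 and 0.458 and 0.0744, 0.0303 and 0.14. Both were higher in every EAT than in every IAT library. The CD30 ligand Tnfsf8 stood at 0.353, 0.295 and 0.312 and 0.456, 0.455 and 0.636 FPKM. Thus 2 ligands of T cell receptors that neighbour each other on chromosome 1, Tnfsf4 and Tnfsf18, 76.5 kb apart, both had lower SVC values in IAT, while the third gene of that stretch, Fasl, 275 kb further, was higher.

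**Figure D3:**
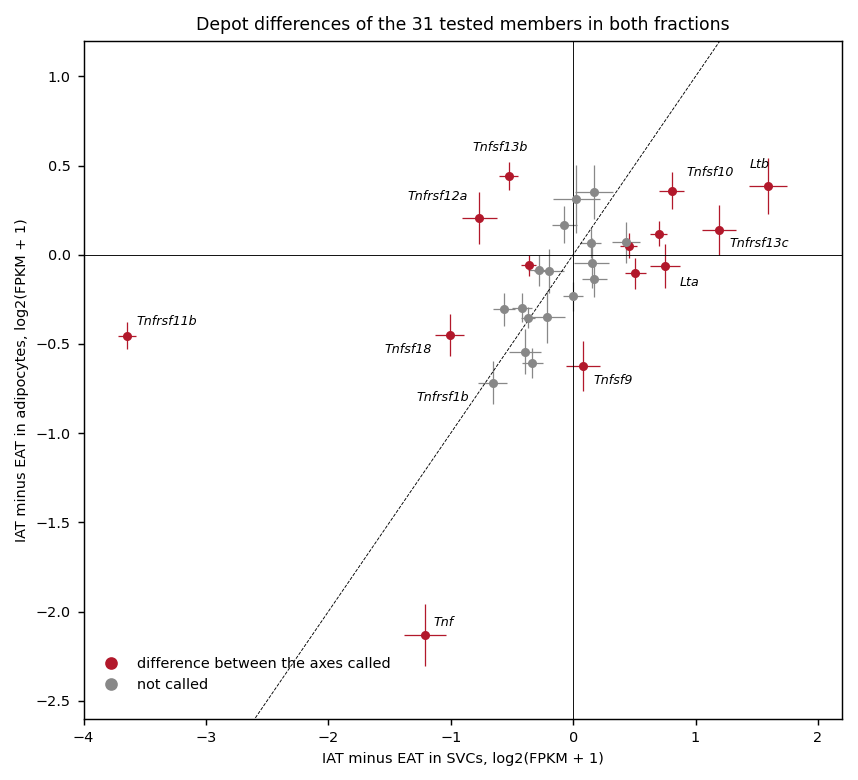
Depot difference (IAT minus EAT, log2(FPKM + 1)) of the 31 tested members in SVCs (x axis) and in adipocytes (y axis), with bars of 1 SE; the dashed line marks equal differences and red points are members whose 2 differences differed by limma's test. Tnfrsf11b lay far to the left, Tnf lowest, Ltb and Tnfrsf13c to the right, and Tnfsf13b in the upper left, with opposite signs.

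The test of the depot differences against each other called 14 of 31 members, 5 with a difference more towards IAT in adipocytes and 9 more towards IAT in SVCs, where 14.7% and 17.8% of all tested features were called. In either direction 32.5% of all features were. By at least 2-fold 1 member was called towards IAT in adipocytes and 2 in SVCs, against 3.64% and 3.43% of all features. These counts include Tnfrsf11b, Tnfsf18 and Lta, whose depot difference in SVCs was fixed by the minimum. Of the other 28 members, 3 were called more towards IAT in adipocytes and 8 in SVCs, of which 0 and 2 by at least 2-fold. Among these, Tnfsf14, Ltb, Tnfrsf13c, Tnfrsf26, Tnfrsf9 and Fasl had passed through SVCs alone. Their adipocyte values were all under 1 FPKM, so this scale kept their adipocyte differences small. For them the test largely restates the SVC difference and does not compare the fold differences of the fractions. Of the 14 called members, those more towards IAT in adipocytes were Tnfrsf11b, Tnfrsf12a, Tnfsf13b, Tnfsf18 and Tnfsf14. Those more towards IAT in SVCs were Ltb, Tnfrsf13c, Tnf, Lta, Tnfsf9, Tnfrsf26, Tnfrsf9, Tnfsf10 and Fasl. As ratios of means (IAT over EAT, adipocytes then SVCs) the order was the reverse for Tnfrsf9 (2.88 and 2.13), Fasl (1.89 and 1.73) and Tnfsf18 (0.0886 and 0.275). The ratios were close for Tnfrsf13c (2.88 and 3.30) and Tnfsf14 (0.724 and 0.711). With a pseudocount of 0.1 in place of 1, which gives low levels more weight, 7 of the 14 were not called, namely Ltb, Tnfrsf13c, Tnfrsf9, Tnfsf10, Fasl, Tnfsf14 and Tnfsf18, and Tnfsf18 changed sign. With no minimum on the level Tnfsf18 was not called either (limma adjusted p = 0.0632).

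Markers of other cell types were detected in the adipocyte libraries, and the level of each member in adipocytes was therefore set beside its SVC level. Fas and Ltbr were above 100% in both depots, at 217% and 133% in EAT and 245% and 113% in IAT. Tnfrsf1a was at 85.1% and 97.2% and Tnfrsf12a at 46.7% and 90.7% in EAT and IAT. By comparison, the median marker stood in EAT and IAT at 16.9% and 16.4% for endothelium, 5.17% and 5.73% for fibroblastic progenitors, 1.49% and 1.18% for T cells and 3.04% and 2.79% for B cells. It stood at 12.7% and 3.72% for macrophages. The other lists of markers outside adipocytes ran from 1.49% (skeletal muscle, EAT) to 53.0% (mesothelium, IAT). Tnfsf12, Tnfsf13, Tnfrsf1b and Tnfsf9 lay between 5.98% and 12.3%, and the part of RNA from other cells in those values was not tested.

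**Figure D4:**
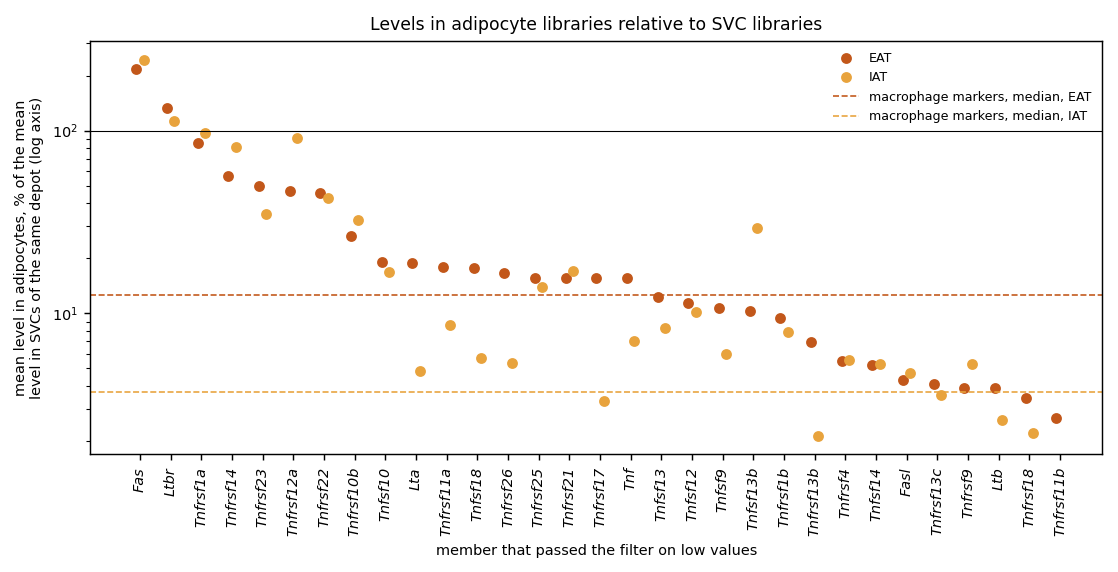
Mean level in adipocytes as a percentage of the mean level in SVCs of the same depot (y axis, log scale) for the members that passed the filter, ordered by the EAT value; dashed lines are the medians of 6 macrophage markers and the solid line is 100%. Fas and Ltbr lay above 100% in both depots, and Tnfsf13b stood higher in IAT than in EAT. Tnfrsf11b, listed at 0 in IAT adipocytes, has no IAT point.

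Genes that act with the family were taken from lists of its signalling chain. Their counts stand beside those of all features: against SVCs 31.1% were called higher and 52.7% lower in EAT adipocytes, and 29.8% and 53.9% in IAT adipocytes. Between depots 10.3% were higher and 27.3% lower in IAT adipocytes, and 14% and 26.2% in IAT SVCs. Of the superfamily members that carry other names, 7 of 9 were tested and all 7 were lower in adipocytes in each depot, but 5 of them (Cd27, Cd40lg, Eda2r, Ngfr and Relt) passed the minimum through SVCs alone and had to be. Ngfr passed through IAT SVCs alone, so it had to be higher in IAT between the SVCs too (0.74 ± 0.0416 FPKM in EAT and 2.11 ± 0.0414 in IAT). Between SVCs the list had 3 higher and 1 lower of 7 tested in IAT, among them Cd40lg, the CD40 ligand of T cells, at 1.45 ± 0.187 FPKM in EAT and 9.09 ± 2.01 in IAT (2.02 ± 0.11, limma adjusted p = 1.97e-08), and Cd27, a T and B cell receptor, at 1.31 ± 0.258 and 6.75 ± 2.13 FPKM (1.72 ± 0.16, limma adjusted p = 2.63e-06). Cd40 itself was lower in IAT adipocytes (-0.57 ± 0.07, limma adjusted p = 6.86e-05). Receptor adaptors and kinases had 2 higher and 11 lower of 17 tested in EAT adipocytes against SVCs, and 3 higher and 12 lower of 17 tested in IAT. Traf1, an adaptor induced by NF-kB that passed the minimum through SVCs alone, was at 0.536 ± 0.0667 FPKM in EAT adipocytes and 12.1 ± 0.223 in EAT SVCs, and the apoptosis inhibitor Birc3 at 5.6 ± 0.496 and 39.8 ± 2.3. Between adipocytes the same list had 3 higher and 8 lower of 17 tested in IAT. Ripk1, the kinase at Tnfrsf1a, was higher there, at 20.3 ± 0.425 against 12 ± 1.3 FPKM (0.72 ± 0.08, limma adjusted p = 2.04e-05).

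NF-kB subunits and their kinases had 1 higher and 6 lower of 8 tested in EAT adipocytes and 1 higher and 7 lower of 8 tested in IAT adipocytes against SVCs, with Nfkb1 at 11 ± 1.33 FPKM in EAT adipocytes and 68.2 ± 3.24 in EAT SVCs. The inhibitors and feedback genes of NF-kB had 1 higher and 10 lower of 11 tested in EAT and 0 higher and 9 lower of 11 tested in IAT. Among them, Nfkbie passed the minimum through SVCs alone and so had to be lower in adipocytes. Between SVCs this list had 0 higher and 6 lower of 11 tested in IAT. Nfkbiz, an atypical inhibitor, was at 142 ± 3.82 FPKM in EAT SVCs and 73.7 ± 6.17 in IAT SVCs (-0.94 ± 0.08, limma adjusted p = 7.06e-07), and Tnfaip2, a gene induced by TNF, at 57.2 ± 1.4 and 26 ± 3.29 (-1.12 ± 0.12, limma adjusted p = 6.63e-06). Between adipocytes the list was split, with 2 higher and 2 lower of 11 tested in IAT. Tnfaip2 was lower in IAT (-0.97 ± 0.12, limma adjusted p = 3.68e-05), as Tnf was, while Bcl3, a nuclear cofactor of NF-kB, was higher, at 37.4 ± 1.24 against 18.4 ± 1.04 FPKM (0.98 ± 0.09, limma adjusted p = 4.23e-06), and the feedback enzyme Tnfaip3 was higher too (0.50 ± 0.10, limma adjusted p = 0.00201). Sheddases had 0 higher and 3 lower of 4 tested in IAT adipocytes and 0 higher and 3 lower of 4 tested in IAT SVCs; Adam17, which releases Tnf, was at 24 ± 1.54 FPKM in EAT SVCs and 17.4 ± 0.602 in IAT SVCs (-0.44 ± 0.07, limma adjusted p = 0.000166).

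Death signalling genes were split between fractions, with 4 higher and 6 lower of 12 tested in EAT adipocytes and 5 higher and 7 lower of 12 tested in IAT. The necroptosis kinase Ripk3 was at 1.99 ± 0.312 FPKM in EAT adipocytes and 20.8 ± 1.32 in EAT SVCs, and Casp8, the caspase at Fas, at 13.8 ± 0.614 and 24.1 ± 1.52. Bid, which carries the signal of Casp8 to mitochondria, was higher in EAT adipocytes (10.9 ± 0.365 against 4.79 ± 0.0934 FPKM; 1.04 ± 0.08, limma adjusted p = 5.39e-08), and Fadd, the adaptor of Fas, was higher in IAT adipocytes than in IAT SVCs (3.83 ± 0.212 against 1.73 ± 0.0955 FPKM; 0.82 ± 0.07, limma adjusted p = 2.42e-07). Of 7 tested features of lymphoid stroma genes that act downstream of Ltbr, between SVCs 4 were higher in IAT and 0 lower, where 14% and 26.2% of all features were. Glycam1 of this list passed the minimum through IAT SVCs alone and so had to be higher there. It stood at 0 to 0.0553 FPKM in EAT SVCs and 6.59 to 29.7 in IAT SVCs. Cxcl13, the B cell chemokine, stood at 5.0 ± 0.709 FPKM in EAT SVCs and 42.1 ± 0.269 in IAT SVCs (2.85 ± 0.11, limma adjusted p = 6.96e-10) and Cxcl12 at 98.4 ± 2.05 and 155 ± 2.57 (0.65 ± 0.08, limma adjusted p = 2.38e-05). Ccl21a was not called and its mean went the other way, at 31.4 ± 28.7 and 12.6 ± 10.7 FPKM. Lymph node stroma markers, all of them also on this list, had 3 higher and 0 lower of 4 tested in IAT SVCs. The part of lymph node tissue in these differences was not tested. Immediate early genes, a list added after the data were seen because digestion can raise them, summed to 4080.5 to 4330.3 FPKM in EAT adipocytes, 5180.2 to 5801 in IAT adipocytes, 8019.8 to 8993 in EAT SVCs and 8745 to 9493 in IAT SVCs. Their sum was thus lower in EAT than in IAT adipocytes, opposite to Tnf, with 8 of 12 genes called higher in IAT adipocytes (all features 10.3%), and higher in SVCs than in adipocytes, as Tnf was; their part in the levels of members was not tested.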

How the data were processed

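RNA sequencing of 12 libraries was analysed from 1 table per library. The authors deposited FPKM per gene with confidence bounds, per the file headers; TopHat, Cufflinks and GRCm38 (mm10) are named per the submitters' processing notes, and their versions are not given in the sources used here. FPKM keeps no counts, so fragments were estimated from the bounds, and only 50.5 to 54.2% of low values came out whole within 0.02. No count test was therefore run. Features with a failed estimate (9, no member among them) were left out. Values were tested as log2(FPKM + 1), which understates changes of low genes, with limma 3.58.1 in R 4.3.3: 4 group means over all 12 libraries, a mean-variance trend, and Benjamini-Hochberg adjustment over the 13175 features that reached 1 FPKM in 3 or more libraries; members whose difference this minimum fixed are given with the adjusted p of the fit without it. The procedure was tested on simulated data. Values in every library are given for Tnf and its receptors, for up to 6 called members per comparison with the smallest p, groups apart and a log2 difference of at least 1, and for their partners; from each list of pathway genes up to 3 with the smallest p are named. The members and lists were chosen with earlier results of these data known. Alternatives were a pseudocount of 0.1, no filter, TPM and median-of-ratios scaling, no trend, only the groups compared, a replicate block, and leaving out each library. Promoters were read from RefSeq GRCm38.p6.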

Additional observations from a re-analysis of the deposited data

Results flagged for a closer look

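For 14 of 31 tested members the depot difference (IAT minus EAT) in adipocytes differed from that in SVCs by limma's test of the difference. Each value is the adipocyte difference minus the SVC difference in log2(FPKM + 1). It was 3.19 for Tnfrsf11b, 0.97 for Tnfrsf12a, 0.97 for Tnfsf13b, 0.56 for Tnfsf18 and 0.30 for Tnfsf14. It was -1.20 for Ltb, -1.05 for Tnfrsf13c, -0.92 for Tnf, -0.81 for Lta, -0.70 for Tnfsf9, -0.61 for Tnfrsf26, -0.58 for Tnfrsf9, -0.45 for Tnfsf10 and -0.40 for Fasl. As ratios of means, the order of the fractions was the reverse for Tnfrsf9, Fasl and Tnfsf18. Tnfsf13b was the member called in opposite directions in the fractions. With a pseudocount of 0.1, Tnfrsf11b, Tnfrsf12a, Tnfsf13b, Tnf, Lta, Tnfrsf26 and Tnfsf9 were still called, and the other 7 were not. With no minimum on the level Tnfsf18 was not called (limma adjusted p = 0.0632). Tnfrsf11b, Tnfsf18 and Lta passed that minimum through the SVCs of 1 depot alone.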

How the results depend on the processing

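The count of members called higher in IAT adipocytes was 2, and it was 5 with a pseudocount of 0.1, 1 with no filter, 4 with TPM scaling, 5 with median-of-ratios scaling and 1 to 4 when 1 library was left out (4 without EAT adipocyte replicate 1, 1 without IAT adipocyte replicate 3). The 1 member higher in adipocytes in IAT became 2 with TPM scaling, 3 with median-of-ratios scaling, 2 with only the groups compared and 1 to 2 when 1 library was left out. The 5 members with a depot difference more towards IAT in adipocytes became 3 with a pseudocount of 0.1. The other counts stayed within 1.5 times. Some differences changed sign, and the cause was not tested. With median-of-ratios scaling these were Tnfrsf1a at 0.0592 (depot, adipocytes), 0.11 (fraction, EAT) and 0.36 (fraction, IAT, limma adjusted p = 0.00214), Ltbr at 0.0848 and Tnfrsf10b at 0.0111 (depot, SVCs), and Tnfrsf12a at 0.25 and Tnfrsf14 at 0.0680 (fraction, IAT). With TPM scaling they were Tnfrsf14 at -0.0458 and Tnfsf9 at -0.0262 (depot, SVCs) and Tnfrsf1a at 0.0895 (fraction, IAT). With a pseudocount of 0.1 the difference of depot differences of Tnfsf18 was -0.23. When 1 library was left out, differences that were not called ranged across 0: from -0.155 to 0.0327 for Tnfrsf13b and from -0.0214 to 0.132 for Tnfrsf22 (depot, adipocytes), from -0.0466 to 0.0627 for Ltbr, from -0.187 to 0.217 for Tnfrsf14 and from -0.0231 to 0.275 for Tnfrsf18 (depot, SVCs), and from -0.0956 to 0.0591 for Tnfrsf1a (fraction, IAT).

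No label says whether libraries of one replicate number share mice. Deviations of same-numbered libraries correlated at r from -0.31 to 0.37 (18 pairs, 5 over 0.1), which does not settle whether the numbers pair them. With the replicate block 10 in place of 11 members were called lower in IAT adipocytes, and the other counts of members were as without it. Members with few fragments in adipocytes, such as Lta, limit any depot comparison there.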
